A study of Mus musculus with 289 samples.

Results

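Lrig1 and 9 further genes, grouped as markers of hair follicle (HF) stem cells, were followed in single epidermal cells of mouse tail skin. The cells had been labelled through the Lrig1 promoter and came from skin treated with vehicle or with PRT4165. The markers were Lrig1, Lgr5, Lgr6, Cd34, Lhx2, Sox9, Nfatc1, Tcf7l1, Krt15 and Postn. They are defined by symbol, a rule that uses no measured value, although the list was drawn up with earlier results of these data known, and 10 of 10 symbols were among the 15019 genes of the count table. The mice carried Lrig1-EGFP-ires-CreERT2 and Rosa26-fl/STOP/fl-tdTomato in a mixed CBA and C57BL/6 background, and the animals used for single cells were females. All of them received 1 dose of hydroxytamoxifen on the tail, which switches on tdTomato for good in cells that express Lrig1 at that time and in their descendants. The tail was then treated with PRT4165, which blocks Ring1A and Ring1B, the ubiquitin ligases in Polycomb repressive complex 1 (PRC1). Control tails received vehicle. The skin was not wounded. Tomato-positive cells (Lrig1 GL cells, for genetically labelled) were sorted hours after the last application into the wells of plates and sequenced as full-length cDNA.

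The label reports that the Lrig1 promoter was active when tamoxifen was given, and a labelled cell need not express Lrig1 at collection. Each of the 4 plates held 1 treatment, with 2 plates for each treatment, and the labels do not state how many animals a plate held. The plate was therefore the replicate (n = 2 for each treatment), and inside a replicate the treatment cannot be told apart from the plate. The treatment tag of the labels has, beside the drug, a code with no explanation that is not the same for vehicle and PRT4165.

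The HF is renewed by stem cells that sit at different heights along it. Lrig1, a transmembrane protein that restrains receptor tyrosine kinases, marks the junctional zone (JZ) and neighbouring upper follicle, which feed the infundibulum (INFU) and the sebaceous gland. Lgr5 and Lgr6 are related receptors for R-spondins, which amplify Wnt signalling. Lgr5 is known for the lower bulge and hair germ, and Lgr6 for the isthmus above the bulge. Cd34, a surface sialomucin, and Krt15, a type I keratin, are classical bulge markers of mouse skin. The transcription factors Lhx2 (a LIM homeodomain factor), Sox9, Nfatc1 and Tcf7l1 (a Wnt effector also called Tcf3) are needed to set up or maintain bulge stem cells. Postn encodes periostin, a secreted matrix protein, and was used in the study as a marker of the INFU rather than of stem cells.

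Of 289 cells in the table, 274 were kept, namely 70 and 55 from vehicle and 72 and 77 from PRT4165. The kept cells of a plate together held 25761800 to 41592700 estimated counts, and the median cell held 141985 counts on vehicle replicate 1 and 429383 to 538754 on the other plates. Vehicle replicate 1 was thus the shallowest plate, and results that depend on depth are also given after thinning every cell to 50000 counts of genes that are not mitochondrial (246 cells deep enough). At least 3 of 8 keratinocyte markers were detected in 272 of 274 cells, the cell type the labels give, and at least 3 of 5 fibroblast markers in 2 cells, both on PRT4165 replicate 1. These 2 cells held 0.780% of all counts and between 0 and 4.66% of the counts of any of the 10 markers. Of the immune list 2 of 6 genes were in the table, so no cell could reach 3. These 2 genes had a count in 44 and 13 cells. Of the melanocyte list 3 of 5 genes were in the table, with a count in 13 to 48 cells each, and no cell had all 3.

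Promoter sequence was printed for 4 of the markers with patterns between cells: Lrig1 and Cd34, which were seldom counted in the same cell, and Lhx2 and Postn, which were often counted together with Cd34. Each window runs from 250 bases before to 50 bases after the RefSeq gene start (GRCm38.p6), 5′ to 3′ on the strand of the gene. Capitals mark the letters of 4 short motifs read on both strands, namely CTTTGA (LEF and TCF factors), GGAAA (NFAT), TAATTA (LIM homeodomain factors) and ACAAT (SOX), which were held by 16%, 61.3%, 5.29% and 31% of the 32851 windows of the reference table.
Lrig1, chr6:94700096-94700395, minus strand: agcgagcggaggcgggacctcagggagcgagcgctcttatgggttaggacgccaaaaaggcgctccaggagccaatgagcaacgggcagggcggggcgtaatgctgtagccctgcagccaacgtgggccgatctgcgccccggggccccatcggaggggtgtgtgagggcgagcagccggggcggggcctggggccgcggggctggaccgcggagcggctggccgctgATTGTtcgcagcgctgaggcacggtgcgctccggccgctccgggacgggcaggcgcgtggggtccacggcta
Cd34, chr1:194938571-194938870, plus strand: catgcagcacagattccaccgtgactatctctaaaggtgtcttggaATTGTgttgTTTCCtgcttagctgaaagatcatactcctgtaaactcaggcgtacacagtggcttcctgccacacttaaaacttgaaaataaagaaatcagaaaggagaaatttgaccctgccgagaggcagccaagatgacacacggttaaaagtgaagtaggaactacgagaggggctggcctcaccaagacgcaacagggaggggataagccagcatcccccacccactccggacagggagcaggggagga
Lhx2, chr2:38339031-38339330, plus strand: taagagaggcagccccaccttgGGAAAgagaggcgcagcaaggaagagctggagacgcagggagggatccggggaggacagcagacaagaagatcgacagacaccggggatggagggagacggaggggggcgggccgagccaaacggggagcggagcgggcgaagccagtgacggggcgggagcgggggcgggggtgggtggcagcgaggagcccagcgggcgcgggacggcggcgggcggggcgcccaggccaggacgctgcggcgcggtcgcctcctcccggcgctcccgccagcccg
Postn, chr3:54360857-54361156, plus strand: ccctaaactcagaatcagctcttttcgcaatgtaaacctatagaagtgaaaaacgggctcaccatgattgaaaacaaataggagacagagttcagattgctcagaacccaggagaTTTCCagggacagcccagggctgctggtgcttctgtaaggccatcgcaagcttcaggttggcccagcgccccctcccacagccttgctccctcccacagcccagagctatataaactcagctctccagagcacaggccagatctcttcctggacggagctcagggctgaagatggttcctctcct

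The window of Lrig1 held 35 CpG dinucleotides at a GC content of 73%, and that of Lhx2 held 34 at 74.7%. Cd34 held 7 CpGs at a GC content of 50%, and Postn held 5 at 53%, beside a median over all windows of 7 CpGs and 52.7%. The Lrig1 and Lhx2 windows therefore lay at the 93.0 and 92.3 percentiles of CpG count, and the Cd34 and Postn windows near the middle, at 47.9 and 38. The Lrig1 window held 1 SOX motif, that of Cd34 held 1 NFAT and 1 SOX motif, and those of Lhx2 and Postn held 1 NFAT motif each, whereas the LEF and TCF and the LIM homeodomain letters were in none of these 4 windows. RefSeq gave a second window for Lhx2 and for Postn, and the window at the GENCODE gene start was printed. The other Lhx2 window also held 1 NFAT motif, and the other Postn window held 1 SOX motif and no NFAT motif. A motif match describes letters only, and binding was not measured in these libraries. Windows on chromosome 18, where Nfatc1 lies, were not used, and windows were found for 6 of 10 markers. Those of Lgr6 and Tcf7l1, which were also seldom counted in the same cell, are not printed. The Lgr6 window held 24 CpGs at a GC content of 67.7%, with 1 NFAT and 1 SOX motif. The Tcf7l1 window held 34 CpGs at 75.3% and none of the 4 motifs.

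The 10 markers covered a wide range of levels, with Krt15 highest and Postn next on every plate. Levels between genes were compared as counts per 1000000 counts (CPM) of the summed cells of a plate, divided by the length in kilobases of the longest coding transcript in GENCODE M21 (GRCm38). On this scale Krt15 (chr11:100131758-100135928) reached 580, 533, 567 and 440 CPM per kilobase on vehicle replicates 1 and 2 and PRT4165 replicates 1 and 2. Postn (chr3:54361109-54391037) followed at 54.4, 147.1, 176.05 and 114.5. The plates of these top 2 genes did not overlap, and Postn was lowest on vehicle replicate 1.

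Lhx2 (chr2:38339281-38369733) had 13.6, 7.56, 47.4 and 18.2 CPM per kilobase, in the same order of plates. Sox9 (chr11:112782224-112787760) had 30.4, 16.3, 11.9 and 11.1. The levels of Lhx2 and Sox9 overlapped across plates, and both lay below every Postn value. Nfatc1, on chromosome 18, had 7.98, 6.16, 6.42 and 4.49 CPM per kilobase. Cd34 (chr1:194938819-194961279) had 2.25, 6.33, 6.45 and 4.86. Nfatc1 was below every value of Sox9 and overlapped Cd34.

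Lrig1 (chr6:94604529-94700158, 19 exons, minus strand), through whose promoter the cells had been labelled, had 3.65, 5.26, 4.30 and 2.24 CPM per kilobase. It overlapped Cd34 and lay above every value of the R-spondin receptors. Lgr5 (chr10:115450311-115587780) had 1.55, 1.83, 0.714 and 1.0, and Lgr6 (chr1:134983301-135105276) had 1.03, 0.473, 1.41 and 0.992. The receptors overlapped each other, and Lgr6 overlapped Tcf7l1 (chr6:72626378-72789254), the lowest marker, at 0.268, 0.407, 0.179 and 0.854. The median cell with Tcf7l1 held 1 count of it.

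**Figure D1:**
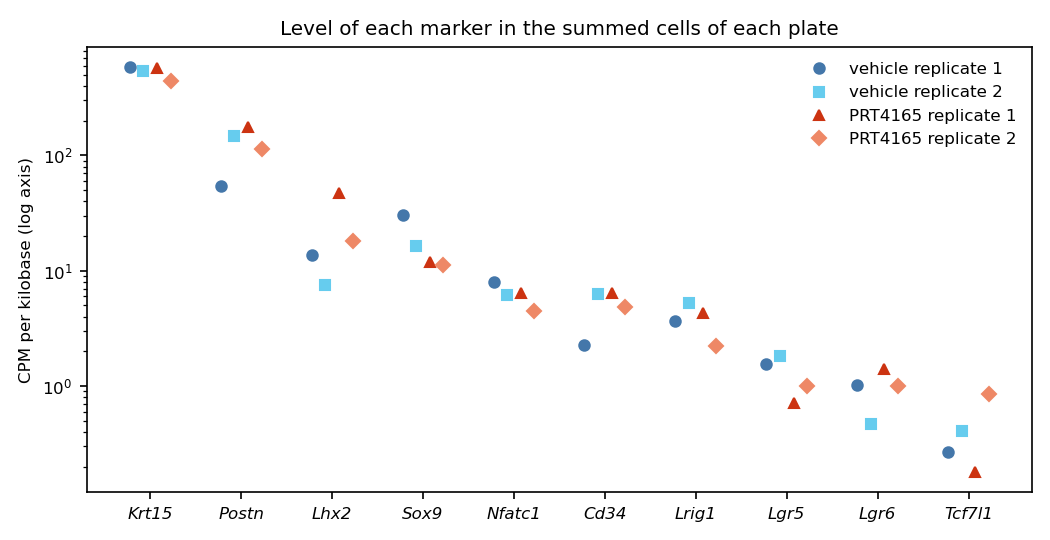
Level of each marker on each plate, as CPM of the summed cells per kilobase of transcript on a log axis. Markers are ordered by their level over all cells, and each point is 1 plate. Krt15 and Postn stand above the other 8 markers on every plate, and the points of Lhx2 and Sox9 overlap.

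The annotation bears on how firmly some of these counts belong to a marker. The Lrig1 gene overlaps Slc25a26 on the opposite strand, Lgr5 overlaps A930009A15Rik, and Cd34, Lhx2, Nfatc1 and Tcf7l1 each overlap antisense genes. The library protocol does not mark strand, so reads of a marker and of an overlapping partner cannot be told apart where both could yield them. Salmon shared reads among transcripts most often for Lgr5, for which 14 of 39 detecting cells (35.9%) held a count that was not whole, followed by Cd34 (19.2%) and Krt15 (16.2%). Nfatc1 (0.826%) and Lhx2 (0%) were nearly or wholly free of such counts.

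Detection followed a similar order. A marker was called detected in a cell with at least 1 estimated count. Krt15 was detected in 216 of 274 cells (78.8%, 95% Wilson interval 73.6 to 83.3), Sox9 in 74.1% of cells, Postn in 55.1% and Nfatc1 in 44.2%. Lrig1 was detected in 97 cells (35.4%, 30.0 to 41.2), so that most cells labelled through its promoter held no Lrig1 count at collection. Lhx2 was detected in 80 cells (29.2%), Tcf7l1 in 69 (25.2%), Cd34 in 52 (19.0%), Lgr6 in 45 (16.4%) and Lgr5 in 39 (14.2%, 10.6 to 18.9). The intervals treat cells as independent and do not cover the spread between plates. For Lrig1 the plates ran from 25.7% to 43.6%, beyond its interval. Reads carried no molecular identifiers.

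The share of cells with Lrig1 moved with depth. It was 23.7% among the 93 shallowest cells of the plates, 37.4% among the 91 cells in the middle and 45.6% among the 90 deepest. At 50000 counts per cell Lrig1 was detected in 67 of 246 cells (27.2%). Sox9 showed the same order, at 64.5%, 72.5% and 85.6%. Krt15 went the other way, from 89.2% in the shallowest cells to 71.1% in the deepest, and Postn was near level, at 55.9% in the shallowest and 53.3% in the deepest cells. Tcf7l1 lost most by thinning, from 25.2% of cells to 7.32%, and 65 of its 69 detecting cells held fewer than 10 counts. Lhx2 lost least, from 29.2% to 27.2%, with a median of 36.5 counts in the cells that held it.

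Cells that held a marker differed widely in its level. Lrig1 had a median of 29.0 CPM in its 97 cells, with an interquartile range of 9.49 to 84.2 and a highest value of 675. Krt15 had a median of 870 CPM and a highest value of 19172. The 10 cells with the most counts held 89.1% of all Lgr5 counts, 88.4% of Cd34 counts and 74% of Lgr6 counts, against 45.3% for Lrig1, 38.5% for Sox9 and 28.5% for Krt15. The summed levels of Lgr5, Cd34 and Lgr6 were thus set by few cells. In Lhx2, 1 cell of PRT4165 replicate 1 held 2844 counts, which was 54.9% of the Lhx2 counts of that plate and 31.4% of those of all plates.

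**Figure D2:**
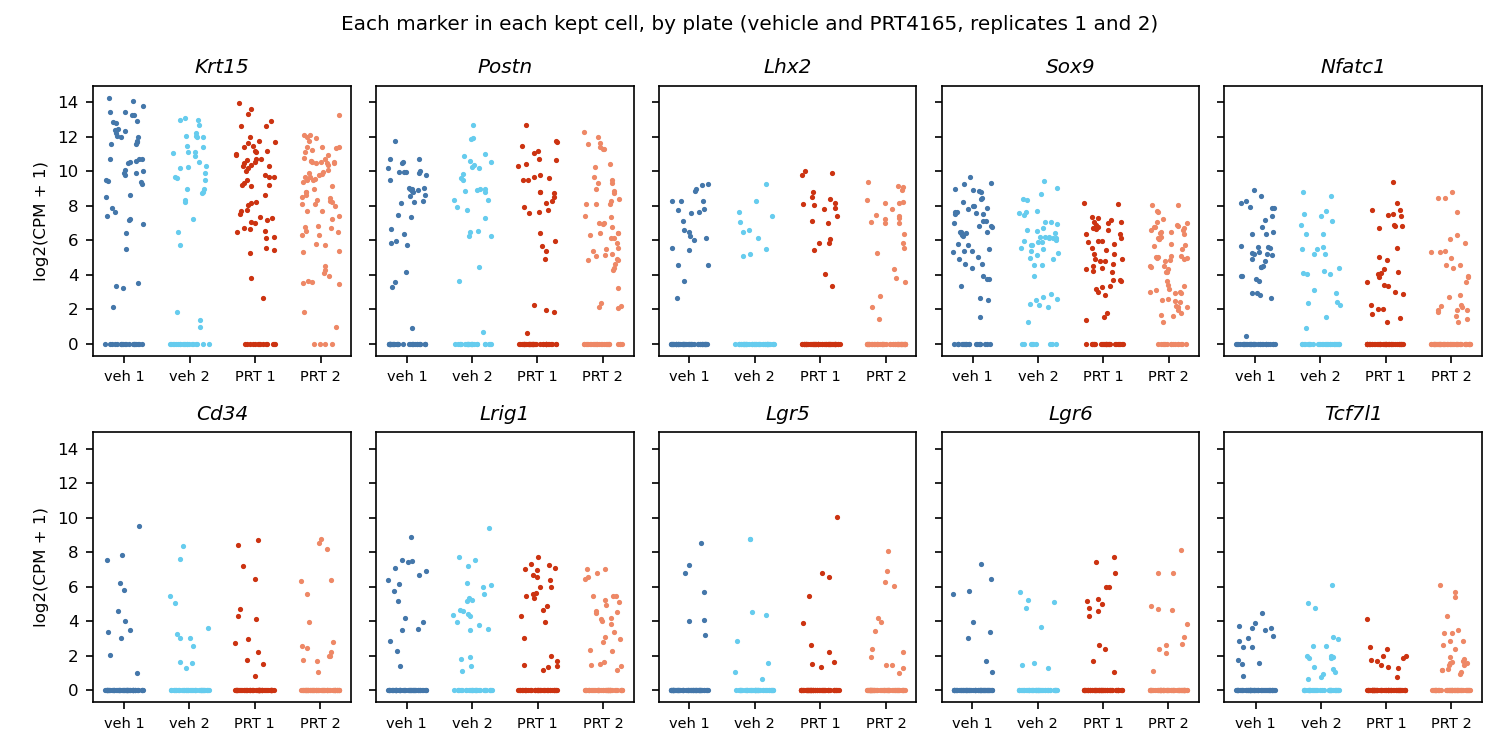
Level of each marker in each of the 274 kept cells as log2(CPM + 1), by plate, with cells at 0 along the base line. Krt15 and Sox9 fill most cells, whereas Lgr5, Lgr6 and Cd34 appear in few cells at widely spread levels.

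Whether PRC1 inhibition changed the markers was asked on the plate sums with the quasi-likelihood test of edgeR. No marker passed the test in either direction. Over all genes 0 of 12791 had an adjusted p under 0.05 (0% called) and 630 had an unadjusted p under 0.05 (4.93%). No adjusted p was below 0.862. The biological coefficient of variation was 76.9%, so a change had to be large to be called. DESeq2 called 1.68% of 12954 genes (89 of these lower), limma on plate means of log2(CPM + 1) called 19 genes, and none of the 10 markers was among them.

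For Lrig1 the plates gave 18.1 and 26.0 CPM with vehicle (22.0 ± 5.65, SD, n = 2) and 21.3 and 11.1 with PRT4165 (16.2 ± 7.23). The treatments overlapped, and the log2 fold change of PRT4165 over vehicle was -0.41 (SE 0.74, edgeR adjusted p = 0.997). Leaving out PRT4165 replicate 1 gave -0.88, and leaving out PRT4165 replicate 2 gave -0.04. Among the R-spondin receptors, Lgr5 had 7.31 and 8.62 CPM with vehicle and 3.37 and 4.71 with PRT4165, a log2 fold change of -0.93 (SE 0.96, unadjusted edgeR p = 0.359). Both PRT4165 plates were below both vehicle plates, at few counts (129.5 to 299 per plate). Lgr6 had 6.87 and 3.16 CPM against 9.44 and 6.62, which overlapped (log2 fold change 0.65, SE 0.98, with 0.11 without vehicle replicate 2 and 1.51 without vehicle replicate 1).

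Of the bulge surface and keratin markers, Cd34 had 5.75 and 16.2 CPM with vehicle and 16.5 and 12.4 with PRT4165. Its log2 fold change of 0.49 (SE 0.84) moved between 0.01 and 1.22 when 1 plate at a time was left out, the first without vehicle replicate 1 and the last without vehicle replicate 2. Krt15 had 987 and 907 CPM against 964 and 748 (log2 fold change -0.13, SE 0.42). In plate means of log2(CPM + 1), in which each cell counts equally, the Krt15 difference was 1.11. The Krt15 treatments overlapped, and the sign changed without vehicle replicate 1 (0.09).

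Of the transcription factors, Lhx2 had the largest difference on plate sums but not in plate means of log2(CPM + 1), where it was 0.32 beside -1.14 for Sox9 and -0.79 for Nfatc1. Lhx2 had 38.6 and 21.5 CPM with vehicle and 134.6 and 51.8 with PRT4165, so that the plates did not overlap, with a log2 fold change of 1.60 (SE 0.70, unadjusted edgeR p = 0.0509, adjusted p = 0.997). Without the cell with most Lhx2 counts on each plate the value was 1.10, without PRT4165 replicate 1 it was 0.83, and over all cells of the table, unfiltered, it was 0.84. Sox9 had 126 and 67.6 CPM with vehicle and 49.4 and 46.04 with PRT4165 (log2 fold change -1.03, SE 0.61, unadjusted edgeR p = 0.127). The plates of Sox9 did not overlap either, but without vehicle replicate 1 the value was -0.32. Nfatc1 had 38.3 and 29.5 CPM against 30.8 and 21.5 (-0.37, SE 0.67, and -0.003 without vehicle replicate 1), and Tcf7l1 had 0.816 and 1.24 against 0.546 and 2.60 (0.70, SE 1.45), and both overlapped.

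Postn had 174.3 and 471 CPM with vehicle and 564 and 367 with PRT4165, which overlapped (log2 fold change 0.61, SE 0.53, unadjusted edgeR p = 0.281). The Postn value was 0.15 without vehicle replicate 1 and 1.30 without vehicle replicate 2. In all, the log2 fold changes of 5 of 10 markers were above 0, with a median of 0.18, beside a median of -0.02 over all genes tested. The CPM of 3 of 10 markers did not overlap between treatments (Lgr5, Lhx2 and Sox9), beside 31.7% of all genes tested. The share of markers was thus close to that of all genes.

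Detection was compared over plates by an exact permutation test, two-sided, which cannot give a p below 0.333 for 2 plates against 2. The shares of cells with a count did not overlap between treatments for Lgr6, Nfatc1 and Krt15, which was 3 of 10 markers beside 38.2% of all genes with a count. Lgr6 was detected in 12.9% and 14.5% of vehicle cells and in 20.8% and 16.9% of PRT4165 cells, a difference of 5.16 percentage points (exact permutation p = 0.333, 0.833 after Benjamini-Hochberg adjustment over 10 markers). Nfatc1 was detected in 51.4% and 47.3% against 41.7% and 37.7%, a difference of -9.69 points with the same p-values. At equal depth the plates of Nfatc1 overlapped.

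Krt15 was detected in 71.4% and 63.6% of vehicle cells and in 80.6% and 94.8% of PRT4165 cells, and at equal depth in 62.7%, 57.4%, 73.8% and 91.7% in the same order. Its CPM did not follow. Among cells that held Krt15 the median level was 1501 and 1207 CPM with vehicle and 801 and 501 CPM with PRT4165, lower on both PRT4165 plates. The share was thus higher and the level among detecting cells lower on both PRT4165 plates, while the summed level overlapped. No order between treatments was read from the share.

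Lrig1 was detected in 25.7% and 43.6% of vehicle cells and in 36.1% and 37.7% of PRT4165 cells. The difference of 2.21 points turned to -2.10 at equal depth. The other 6 markers overlapped between treatments. Lgr5 was detected in 10% and 14.5% against 13.9% and 18.2%, Cd34 in 17.1% and 21.8% against 16.7% and 20.8%, and Lhx2 in 32.9% and 20% against 27.8% and 33.8%. Sox9 was detected in 71.4% and 83.6% against 62.5% and 80.5%, Tcf7l1 in 21.4% and 32.7% against 16.7% and 31.2%, and Postn in 51.4% and 54.5% against 47.2% and 66.2%. At equal depth 4 of 10 markers did not overlap (Lgr6, Sox9, Tcf7l1 and Krt15), beside 34.6% of all genes.

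**Figure D3:**
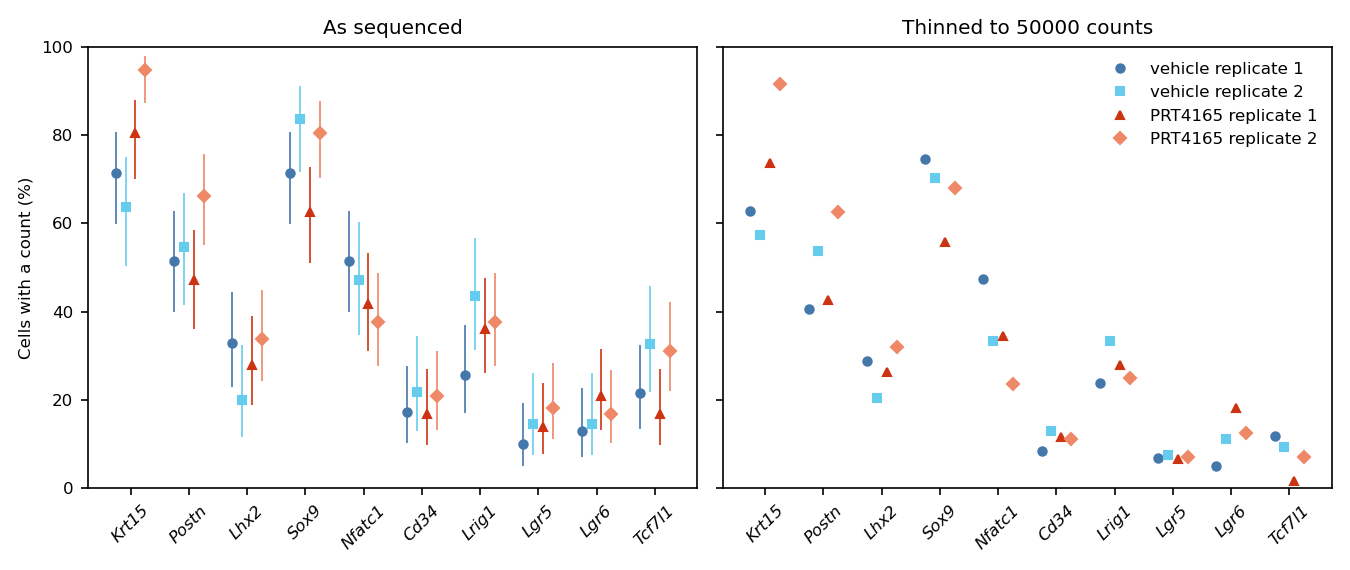
Share of cells with a count of each marker on each plate, as sequenced with 95% Wilson intervals (left) and after thinning each cell to 50000 counts (right). The PRT4165 plates lie above the vehicle plates for Krt15 and Lgr6 in both panels, and the Lrig1 plates overlap in both.

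Markers of the sebaceous gland differed between plates as well. With vehicle, at least 3 of 7 sebaceous markers were detected in 16 of 70 and 12 of 55 cells. With PRT4165 they were detected in 25 of 72 and 50 of 77 cells. These numbers were not taken at equal depth, and 66.7% of all genes with a count had a higher mean share with PRT4165. The summed level of the list was 636 and 1802 CPM with vehicle and 1041 and 2834 CPM with PRT4165, which overlapped. No marker of the list was at 0 overall. Lgr6 was most frequent in the cluster of cells that carries these markers. What part the difference in cells with sebaceous markers had in the detection of Lgr6 was not tested.

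Cells held 3.66 and 3.96 of the 10 markers on average with vehicle and 3.64 and 4.38 with PRT4165. The means of 3.81 ± 0.217 and 4.01 ± 0.522 (SD, n = 2) differed by 0.197 (exact permutation p = 1), and by 0.0960 at equal depth. Over all plates 3 cells held none of the markers, 62 cells held 4, which was the most frequent number, and 103 cells (37.6%) held 5 or more. No cell held more than 8.

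Co-detection asks whether markers fall in the same cells more or less often than their own frequencies give. The expected number of cells was the product of the frequencies within each plate and each depth class of it (shallow, middle or deep), summed. Of the 45 pairs, 29 were observed above their expected number and 11 were above it on 4 of 4 plates, with a median ratio of 1.02. Ratios above 1 were common, since a marker had a ratio above 1 with 49.3% (Cd34) to 73.5% (Lgr6) of all genes expected in at least 10 common cells. For the pairs described most closely, the percentile among these genes is given from each of the markers. The cells of a plate share their source, and these ratios are descriptions with no test.

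Lrig1 was seldom found with Cd34 or with Tcf7l1. Lrig1 and Cd34 were counted together in 12 cells against 19.2 expected (ratio 0.625), below expectation on 4 of 4 plates, with 1, 4, 4 and 3 cells against 2.88, 5.75, 4.58 and 5.98. At equal depth there were 3 cells against 7.47. Lrig1 and Tcf7l1 shared 16 cells against 26.1 expected (0.613), again below on 4 of 4 plates, and 3 against 4.86 at equal depth. Among the 9451 genes compared with Lrig1, the median ratio was 1.06 and the 5th to 95th percentiles ran from 0.839 to 1.33. Cd34 lay at the 0.561 percentile of these genes and Tcf7l1 at the 0.476 percentile. Seen from Cd34 and from Tcf7l1, Lrig1 lay at the 2.25 and the 0.819 percentile.

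Lrig1 was found with Lgr6 in 23 cells against 16.8 expected (1.37), above on 3 of 4 plates, and in 10 against 8.03 at equal depth (1.25). This was the 96.3 percentile of genes seen from Lrig1 and the 88.2 percentile seen from Lgr6. With Sox9 it shared 83 cells against 74.9, above on 4 of 4 plates, at the 65.6 percentile seen from Lrig1 and the 89.4 seen from Sox9. Of cells with Lrig1, 85.6% held Sox9 and 23.7% held Lgr6, against 67.8% and 12.4% of the cells without Lrig1. Cd34 was held by 12.4% of cells with and 22.6% of cells without Lrig1, and Tcf7l1 by 16.5% and 29.9%. Cells with Lrig1 were deeper (median 515566 against 333761 counts), so that the lower shares of Cd34 and Tcf7l1 stood in the deeper cells. At equal depth Sox9 was held by 82.1% of cells with and 61.5% of cells without Lrig1, Lgr6 by 14.9% and 10.6%, and Cd34 by 4.48% and 13.4%. The pairs of Lrig1 with Lgr5, Lhx2, Nfatc1, Krt15 and Postn had ratios of 1.02 to 1.03.

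Lhx2 was often found with Lgr5 and with Cd34. Lgr5 and Lhx2 were counted together in 21 cells against 12.03 (ratio 1.75, and 12 against 4.61 at equal depth). Cd34 and Lhx2 shared 24 cells against 15.2 (1.58, and 16 against 7.26 at equal depth). These pairs lay above the 98 percentile of genes from either marker. Lhx2 and Postn shared 58 against 45.4, Cd34 and Postn 39 against 29.2, Lhx2 and Krt15 77 against 64.9, and Krt15 and Postn 140 against 121.5. All 6 pairs were above expectation on 4 of 4 plates. The other 4 pairs of these 5 markers had ratios of 1.29 (Lgr5 and Cd34), 1.14 (Lgr5 and Postn, above on 2 of 4 plates), 1.13 (Cd34 and Krt15) and 1.09 (Lgr5 and Krt15). Cd34 with Tcf7l1 (1.36) and Lgr6 with Postn (1.31, and 1.02 at equal depth) were as high. Krt15 and Postn also had the highest correlation of level among the pairs (Pearson r = 0.46 over 274 cells of 4 plates, centred on the plate means).

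Lgr5 and Lgr6, the related receptors, had the highest ratio, with 13 cells against 6.70 expected (1.94), above on 3 of 4 plates and with 0 cells on vehicle replicate 1, where 0.732 were expected. Lgr6 and Sox9 were below expectation on 4 of 4 plates (28 against 32.1). Lgr6 and Tcf7l1 shared 6 cells against 12.4, the lowest ratio (0.484, at the 0.648 percentile seen from Lgr6 and the 0.176 seen from Tcf7l1). Lgr5 and Nfatc1 shared 10 against 17.4 as sequenced but 6 against 5.79 at equal depth, so that this low ratio did not hold at equal depth.

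**Figure D4:**
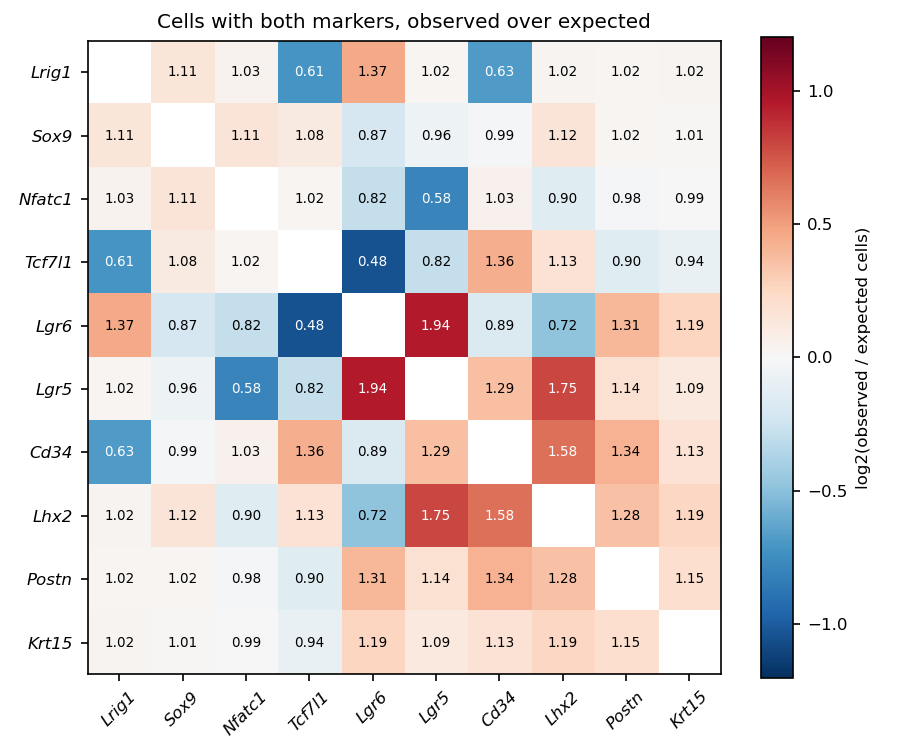
Observed over expected number of cells that held both markers of a pair, for the 45 pairs of 10 markers over 274 cells, with the colour on a log2 scale. Lrig1 stands below 1 with Cd34 and Tcf7l1 (0.63 and 0.61) and above 1 with Lgr6 (1.37), and Lhx2 stands above 1 with Lgr5 and Cd34 (1.75 and 1.58).

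Genes were next ranked by how closely their level followed each marker over the 274 cells (Pearson r of log2(CPM + 1) centred on plate means, over 10418 genes detected in at least 20 cells). Krt15 was followed most closely, by Krt5 (r = 0.73), the basal keratin partner of Krt14, and then by the ferritin light chain Ftl1 (0.66) and the calcium-binding S100a6 (0.63). Postn was followed by Col17a1 (0.61), the hemidesmosomal collagen, by Krt5 (0.50) and by Fth1 (0.50). Genes of the basal layer thus led for both.

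Cd34 was followed by 1700019D03Rik (0.53), by the BMP antagonist Grem1 (0.52) and by S100a4 (0.45), each counted with Cd34 in 14 to 22 cells. Lhx2 was followed by Crip1 (0.52), by the transcription factor Creb5 (0.52) and by the chemokine Cxcl14 (0.49), and Crip1 was counted in 71 of the 80 cells with Lhx2. Lgr5 was followed by the zinc finger gene Bnc1 (0.51), by Tnc (0.44), which encodes tenascin C, and by the T-box factor Tbx1 (0.44). Lgr6 was followed by the vasopressin receptor Avpr1a (0.45), by Adh1 (0.44) and by the alarmin Il33 (0.42). Few cells carry these values, with 11 to 17 common cells for Lgr5 and 16 to 25 for Lgr6.

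For Lrig1 the nearest genes were Isyna1 (0.34), the ephrin ligand Efnb2 (0.33) and the Wnt receptor Fzd7 (0.32). Efnb2 was counted in 93 of the 97 cells with Lrig1, but also in 225 cells in all. Sox9 was followed by the kinase Sgk1 (0.40), Sbsn (0.36) and Calml3 (0.36), the last 2 known from differentiating keratinocytes. Values were lower still for Nfatc1 (Cd109, 0.32, then Gpx2) and for Tcf7l1 (Rnf11, 0.28, then Ildr1 and Nt5dc2). In counts as sparse as these, correlations of this size are weak.

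The cells were grouped into 8 clusters, A to H by size, without the 10 markers, so that the markers could be described across clusters they had not built. Of these, 3 were named from their markers. Cluster E was sebaceous gland-like (27 cells, all 7 sebaceous markers raised, led by Far2, Mc5r and Fa2h). Cluster A was cycling-like (65 cells, 5 of 6 cycling markers raised, led by the cyclin genes Ccna2 and Ccnb1) and also had all 6 basal markers raised. The trait was not particular to A, since cluster H also had 5 of 6 cycling markers raised. The summed level of the cycling list was 1342 CPM in A, 1331 in H and 1367 in F. Cluster B was differentiated interfollicular-like (45 cells, 6 of 6 such markers raised, led by Aadacl2) and also had 5 of 6 upper follicle markers raised. Cluster C (37 cells, led by Klk10, Sprr4 and Sprr1a) had 5 of 6 markers of each of these lists raised and was not named. Cluster D (31 cells) was led by Angptl7, 1700019D03Rik, Spink6 and Cck and had 5 of 6 basal markers raised. Cluster F (27 cells, led by Spry2) was the shallowest, with a median of 1527 genes, G (24 cells) was led by Pi15, Col4a3 and Aspn, and H (18 cells) by the hair keratin gene Krt35.

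Cd34, Krt15 and Postn were most frequent in cluster D. Cd34 was detected in 51.6% of its cells, against 8.89% to 33.3% in the other clusters, and 82.1% of all Cd34 counts lay there. A single cell of D, from PRT4165 replicate 1, held 22.6% of all Cd34 counts. Krt15 was detected in 96.8% of the cells of D at 3537 CPM, Postn in 93.5% at 1642 CPM and Lhx2 in 71% at 209.2 CPM. Over all plates together, Lrig1 was detected in 12.9% of the cells of D (4 of 31) at 1.25 CPM, its lowest share and level among the 8 clusters. On vehicle replicate 1 its share in D was 25%, above B and G (20% each) and F (0%). It was 0% on vehicle replicate 2 and 11.1% on PRT4165 replicate 2, and PRT4165 replicate 1 had 4 cells in D. At equal depth 1 of 26 cells of D held Lrig1 and 12 of 26 held Cd34.

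Lrig1 was spread over the rest. Its share was highest in the sebaceous gland-like cluster E (51.9%), followed by C (45.9%), G (41.7%), A (40%), H (38.9%) and B (31.1%), and was 18.5% in the shallow cluster F. At equal depth these shares ran from 25.0% in H to 34.8% in G, with 6.67% in F. By counts, A held 29.5% of Lrig1, G 21.1% and C 20.2%. The G value leaned on 1 cell with 12.9% of all Lrig1 counts. Within a cluster the shares differed between plates, for example from 18.2% to 66.7% in B.

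The receptors parted by cluster. Lgr5 was most frequent in H (55.6%, 10 of 18 cells), ahead of E (25.9%) and D (22.6%), and lowest in C (2.70%). By level Lgr5 reached 43.5 CPM in H, 24.3 in D and 14.0 in G but 0.642 in E, where 1 of 26 cells held it at equal depth. These levels leaned on single cells. Of all Lgr5 counts, 1 cell held 18.5% in H, 1 cell 14.3% in D and 1 cell 15.1% in G. In G that cell supplied most of the 23.4% of Lgr5 counts found there. The order of H, D and G by level is thus not firm. Lgr6 was most frequent in E (51.9%, 26.1 CPM), then H (27.8%) and A (24.6%, 13.5 CPM), and was between 4.44% and 8.33% in the other 5. By counts, E held 44.9% of Lgr6 and A held 43%. PRT4165 replicate 1 and PRT4165 replicate 2 supplied 6 and 16 of the 27 cells of E, and the vehicle plates 2 and 3.

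Among the factors, Lhx2 was detected in 83.3% of the cells of H, 75% of G and 71% of D, but in 3.70% of E (1 of 27) and 8.11% to 16.9% of A, B, C and F. In F, 4 of 27 cells held it, and the 1 cell described above supplied most of the 34.8% of Lhx2 counts found there. Nfatc1 was highest in G (75.0%, 74.1 CPM) and C (62.2%), and was found in 1 of 18 cells of H (5.56%). Over all cells, Lhx2 and Nfatc1 thus met in G and parted in H. Of the 18 cells of H, 9 came from PRT4165 replicate 1, and no other plate gave more than 4. In G, Lhx2 was found in 80% of cells on vehicle replicate 1 and 33.3% on vehicle replicate 2, and Nfatc1 in 90% and 66.7%. Sox9 was found in 24 of 24 cells of G and in 44.4% (F) to 87.1% (D) elsewhere, and Tcf7l1 in 11.1% (F) to 41.7% (G).

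Over all cells, Krt15 and Postn were least frequent in B and C, the clusters with differentiation markers. Krt15 was detected in 43.2% of C at 63.6 CPM and 60% of B at 163.8 CPM, against 81.5% to 96.8% in the other clusters. Postn was detected in 13.5% of C at 6.31 CPM and 28.9% of B, against 44.4% to 93.5% elsewhere. The plates differed widely, from 0% to 94.4% in B and 25% to 100% in C for Krt15, and from 10% to 45.5% in B and 0% to 50% in C for Postn. On PRT4165 replicate 2 Krt15 in B and C was not below that in E (93.8%), and on PRT4165 replicate 1 Postn in B was above that in F (33.3%) and H (11.1%). Cells of G and D held the most markers (5.29 and 5.10 of 10 on average) and cells of F the fewest (2.70).

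**Figure D5:**
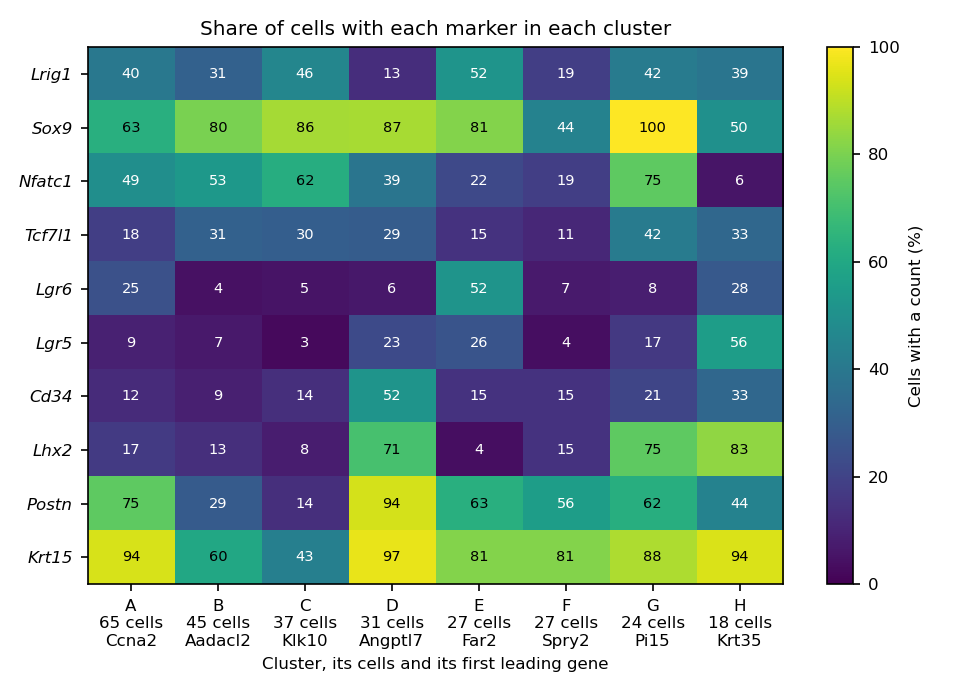
Share of cells with a count of each marker in each of 8 clusters that were built without the markers, with the number of cells and the first leading gene of each cluster. Over all plates together, Lrig1 is lowest in D (13%), where Cd34, Krt15 and Postn are highest, Lgr5 is highest in H and Lgr6 in E.

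Some pairs moved when clusters replaced plate and depth. In a comparison added after the data were seen, the expected number was computed within clusters only, so plate and depth were not held. Of the 45 pairs, 27 were then above expectation, against 29 before, and the median ratio was 1.02 both times. Cd34 and Lhx2 had 24 cells against 23.1 (ratio 1.04) and Lgr5 and Lhx2 21 against 18.2 (1.15). Lrig1 and Cd34 still had 12 against 16.04 (0.748), Lrig1 and Tcf7l1 16 against 24.5 (0.653), and Lgr5 and Lgr6 13 against 8.93 (1.46). Outside cluster D, Lrig1 and Cd34 shared 11 cells against 14.1 expected from plate and depth. The low ratio of Lrig1 with Tcf7l1 was thus little changed within clusters, and that with Cd34 moved towards 1. The parts of cluster, plate and depth in these shifts were not tested.

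Further genes of these compartments were taken from lists written with the design. Of 25 other HF stem cell genes, 23 were in the table and 22 were tested, of which 0 rose and 0 fell with PRT4165 (edgeR), with a median log2 fold change of 0.08. The smallest p was that of the Wnt inhibitor Wif1, with 0 and 0.0576 CPM with vehicle and 0.780 and 5.72 with PRT4165 (unadjusted edgeR p = 0.0118, adjusted p = 0.898, and DESeq2 adjusted p = 0.0270). It was detected in 0%, 1.82%, 1.39% and 5.19% of cells, so the difference rested on a few cells. Bmp6, a growth factor, had 4.61 and 2.21 CPM against 0.468 and 0.817, and Gli2, an effector of hedgehog signalling, had 0 and 0.634 against 2.5 and 2.0.

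Of 11 upper follicle and JZ genes, 11 were tested and 0 rose or fell, and 2 of 11 log2 fold changes were above 0, with a median of -0.70. Krt17, a keratin of follicle keratinocytes, had 1630 and 3317 CPM with vehicle and 1234 and 717 with PRT4165 (log2 fold change -1.28, SE 0.46, unadjusted edgeR p = 0.0240, adjusted p = 0.935). Krt79, a keratin of the upper follicle, had 3446 and 1913 CPM against 1820 and 1207, and Plet1, a JZ surface marker, had a log2 fold change of -0.77. These 3 genes were named for the smallest p of the list, none passed the test, and in plate means of log2(CPM + 1) Krt79 and Plet1 had the other sign (0.77 and 0.12).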

How the data were processed

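Single tomato-positive cells were sequenced with a modified Smart-seq2 protocol. The authors quantified reads against the mouse transcriptome with Salmon 0.13.1 and deposited estimated counts per gene and cell, not scaled, of which 18.3% above 0 were not whole. The submitters' processing notes also name Seurat, R 4.0.3 and the builds mm10 and GRCm38. Cells with at least 1000 genes and at most 50% mitochondrial counts were kept (274 of 289), as in the study. Each well was its own library, the highest Pearson r between cells was 0.946, and no doublet caller was run.

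For each plate the counts of its cells were added up and rounded. The sums were filtered with filterByExpr, scaled by TMM and given to the edgeR 4.0.16 quasi-likelihood test (R 4.3.3), with Benjamini-Hochberg adjustment over all genes and a threshold of 0.05. DESeq2 1.42.0 and limma 3.58.1 (pseudocount 1 on CPM) were alternatives. The fit and the single-cell steps were tested on simulated data. Shares of cells were compared by exact two-sided permutation over plates. Thinning drew 50000 counts of genes that are not mitochondrial per cell, which 28 kept cells did not reach. Clusters came from 2000 variable genes without the 10 markers, scaled within replicate, by the Leiden algorithm (leidenalg 0.10.2) at resolution 1. Leading genes were ranked by fold among genes in at least 25% of a cluster, and a marker was called raised where its mean log2(CPM + 1) exceeded that of other cells by over 1.

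The labels' batch tag gives 1 replicate number to a vehicle and a PRT4165 plate, which pairs them. Deviations of same-numbered plates from the treatment means had a correlation of 0.0426 over 12791 genes. Named genes were the 10 markers, the 3 genes most like each, the 3 genes of smallest p in each of the 2 lists, and up to 4 leading genes of each cluster. A gene named by this rule is not reported here. The markers and lists were chosen with earlier results of these data known. Gene positions are from GENCODE M21 and promoters from RefSeq (GRCm38.p6). Protein sequences were not used here.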

Additional observations from a re-analysis of the deposited data

How the results depend on the processing

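With 2 plates for each treatment and a wide spread between plates, a difference had to be large to be called, and the levels of Lgr5, Lgr6, Cd34 and Tcf7l1 rest on few cells or few counts. Plate, treatment and the unexplained treatment code cannot be told apart within a replicate. Shares of cells depend on depth.

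The number of genes called was 0 under the other edgeR settings and each omission of 1 plate. DESeq2 called 1.68% of the 12954 genes with an adjusted p (89 genes of these lower) and limma 19 genes (0.149%), and the cause was not tested. Over 120 alternative values of the 10 markers' log2 fold changes, 0 had an adjusted p under 0.05 (smallest 0.467) and 8 had the other sign. Under limma these were Lgr5 (0.041), Cd34 (-0.021), Tcf7l1 (-0.13), Krt15 (1.11) and Postn (-0.15), and so were Krt79 (0.77) and Plet1 (0.12). Limma averages over cells rather than counts. Without 1 plate at a time, Tcf7l1 ranged from -0.90 (without PRT4165 replicate 2) to 1.45 and Krt15 from -0.32 to 0.091 (without vehicle replicate 1, and 0.0002 without PRT4165 replicate 2). Wif1 was called with DESeq2 (6.87).

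Of 80 alternative values of the differences in share, 16 had the other sign. At 10 or more counts these were Lrig1 (-2.40 percentage points), Tcf7l1 (1.04) and Postn (-1.55), after thinning Lrig1 (-2.10), Lgr5 (-0.343) and Cd34 (0.574), and over all cells Cd34 (0.175). Without 1 plate at a time the differences ran from -6.75 to 11.2 for Lrig1, -3.10 to 1.58 for Cd34, -2.09 to 10.8 for Lhx2, -15.0 to 2.99 for Sox9, -10.4 to 4.09 for Tcf7l1 and -5.76 to 13.2 for Postn. The 3 markers whose shares did not overlap became 5 at 10 or more counts and 5 to 8 without 1 plate, where fewer plates have to be apart. With the replicate block, 7 of 10 markers had 1 sign in both pairs, which asks less than no overlap, and the block changed no other call. The share of all genes was not computed at these settings, so these numbers are not read as results about the markers. The difference in markers per cell was -0.0317 at 10 or more counts and ranged from -0.172 (without PRT4165 replicate 2) to 0.566 without 1 plate. The median range of the markers' shares across clusters was 53.2 percentage points, and 35.7 at resolution 0.6, which gives 5 clusters.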

Other observations

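Pecam1, known as an endothelial adhesion molecule and the 1 endothelial marker of the list of 5 that was in the count table, had a count in 274 of 274 kept cells. Its median was 512 CPM, with a range of 24.6 to 10963 CPM per cell. The other 4 endothelial markers on the list (Cdh5, Kdr, Tek and Emcn) were not analysed here, and 37 genes that are not mitochondrial had a count in every kept cell. Pecam1 was named after its values were seen.

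Cycling genes differed in spread between plates. With vehicle, at least 3 of 6 cycling markers were detected in 6 of 70 and 8 of 55 cells. With PRT4165 they were detected in 18 of 72 and 20 of 77 cells. These numbers too were not taken at equal depth, and 66.7% of all genes with a count had a higher mean share with PRT4165. The summed level of the list was 432 and 641 CPM with vehicle and 1147 and 457 CPM with PRT4165, which overlapped. Cluster H, in which Lgr5 and Lhx2 were most frequent, had 5 of these 6 markers raised, as had the cycling-like cluster A, and was led by the hair keratin gene Krt35, and it held 4, 1, 9 and 4 cells of the 4 plates.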
